A study of Mus musculus with 4 samples.

Results

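This report describes 2078 CTCF binding sites of mouse splenic cells that were listed in both B cells and plasmablasts. Among the shared sites they ranked much higher in plasmablasts than in B cells. They were taken from 24186 autosomal sites shared by both lists, themselves part of 24702 shared sites on all chromosomes. A site was a B cell peak that overlapped a plasmablast peak by at least 1 bp, paired with the plasmablast peak of nearest midpoint. The peak score deposited by the authors was turned into a percentile over the 24186 pairs, separately in each list. A pair was chosen when its plasmablast percentile exceeded its B cell percentile by 30 points or more. The chosen pairs were 8.59% of those ranked, and this percentage follows from the rule, so nothing is read from it. The opposite set, with a difference of -30 or less, held 1928 pairs (7.97%), and 20180 pairs lay in between.

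CTCF is a zinc finger protein that binds a long DNA motif, acts as an insulator, and stops cohesin at the anchors of chromatin loops. Most CTCF sites are bound in many cell types. In the B lineage CTCF is known for its part in the folding of the immunoglobulin loci and of the major histocompatibility complex. Plasmablasts are the dividing, antibody-secreting cells that arise from activated B cells.

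The chromatin came from the spleens of C57BL/6 mice aged 6 weeks. B cells were the CD43- fraction, obtained with magnetic beads. Plasmablasts were CD138+ cells sorted by flow cytometry 3 days after the mice received 50 µg of lipopolysaccharide. There was 1 CTCF library per cell type, so no replicate spread exists and no test between cell types was possible. CD138 and CD43 are the only markers the labels give, and peak lists hold no expression values with which to check the cell types. The labels name no lipopolysaccharide for the B cells. The B cell libraries were sequenced on a Genome Analyzer II and the plasmablast libraries on a HiSeq 2000. Instrument, isolation method and lipopolysaccharide treatment therefore cannot be told apart from cell type. The depth of the libraries is unknown, since the files give no read counts. The intervals below are exact (Clopper-Pearson) 95% binomial intervals over sites. For a median they come from the order of the values. They cover counting error only, treat sites as independent, and say nothing of the spread between animals.

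In score, these sites were weak to middling among the shared pairs in B cells and middling to strong among them in plasmablasts. Their B cell scores ran from 10.2 to 163.0 with a median of 48.2, against a median of 105.6 over all pairs. Their plasmablast scores ran from 13.5 to 143.7 with a median of 38.8, against 23.3 over all pairs. The scores have no stated unit and are not on one scale in both files, so only places within a list are compared. The median place among the pairs was the 22.4th percentile in B cells and the 71.5th in plasmablasts, and the median difference was 41.2 points. Over each whole peak list the median place was the 42.6th percentile in B cells and the 76.2nd in plasmablasts. These values restate the choice of the sites and carry no test.

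The typical site crossed from the lower to the upper part of the ranking. In 1555 of the 2078 (74.8%) the B cell score lay below the median of all pairs and the plasmablast score above it. Over all pairs this was 11.4%, a contrast that the rule largely sets. A move from the lowest 25% in B cells to the highest 25% in plasmablasts was seen at 218 sites (10.5%), and from the lowest 10% to the highest 10% at 20. The difference reached 50 points at 558 sites, 70 points at 116 and 90 points at 11. At the other end, 25% of the sites had a difference under 34.9 points, close to the threshold.

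**Figure D1:**
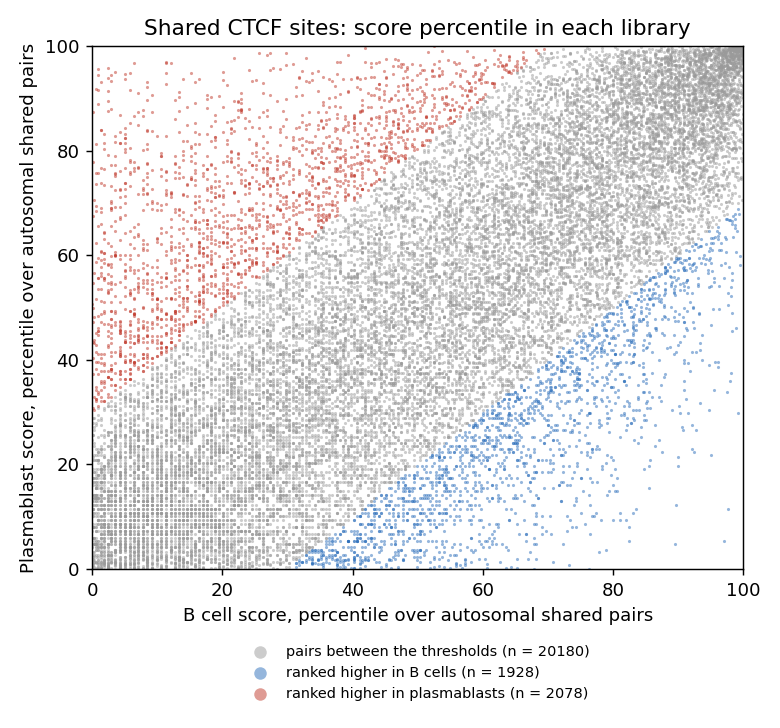
Each point is 1 of the 24186 autosomal shared pairs, placed by its B cell percentile (horizontal axis) and its plasmablast percentile (vertical axis). The 2078 sites in red lie at least 30 points above the diagonal, and the 1928 sites in blue at least 30 points below it.

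Close to the threshold, membership turned on hundredths of a point. The members nearest to it were on chromosome 12 from 58087155 to 58087333 (30.007 points), chromosome 4 from 6152525 to 6152703 (30.005) and chromosome 7 from 99773101 to 99773279 (30.003). Positions are those of the plasmablast peak in mm9, counted from 1. The pairs that just missed it were on chromosome 3 from 30874417 to 30874595 (29.991), chromosome 19 from 41973413 to 41973591 (29.986) and chromosome 4 from 138701175 to 138701353 (29.966). The scores of these 6 pairs overlapped fully: the B cell scores were 20.4 to 127.8 inside and 38 to 84.3 outside.

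The largest differences belonged to sites that were close to the bottom of the shared pairs in B cells and high among them in plasmablasts. Over the whole B cell list the 10 largest lay from the 5.17th to the 15.2nd percentile. The first was on chromosome 15 from 103382594 to 103382772, with a score of 16.7 in B cells and 70 in plasmablasts. It moved from the 0.922nd to the 95.7th percentile, a difference of 94.7 points. The site on chromosome 19 from 55281365 to 55281543 had the same B cell score of 16.7 and a plasmablast score of 66.9 (93.6 points). At both sites the paired midpoints were only 3 bp apart, so the same position was listed in both cell types.

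The site on chromosome 1 from 97658922 to 97659100 scored 19.4 in B cells and 70.3 in plasmablasts, a difference of 93.4 points. It had the fewest other shared sites within 500 kb of the 10 largest, 2, and its nearest shared neighbour, 97923 bp away, differed the other way by -34.8 points. The site on chromosome 11 from 115801117 to 115801295 scored 17.6 and 63.9 (91.8 points) and stood in a crowded region, with 42 other shared sites within 500 kb. Large differences were thus found in both sparse and dense surroundings.

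In 3 of the 10 the peaks of the cell types were not centred on the same place. The midpoints lay 210 bp apart on chromosome 18 at 78030844 to 78031022 (scores 20.4 and 66.6, 91.5 points). They lay 114 bp apart on chromosome 13 at 81780881 to 81781059 (19.4 and 65.3, 91.5 points). On chromosome 9 at 75429895 to 75430073 they lay 84 bp apart (21.3 and 68.2, 91.5 points). At the remaining 7 the midpoints were at most 30 bp apart.

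The other 3 were on chromosome 5 with plasmablast positions 73102218 to 73102396 (scores 15.7 and 61.4, 91.2 points), chromosome 12 with 117266429 to 117266607 (16.7 and 61.2, 90.7 points) and chromosome 16 with 43540292 to 43540470 (20.4 and 64.1, 90.4 points). Chromosome 12 carries the immunoglobulin heavy chain locus, but the place of this site relative to its genes was not determined. Over the 10 sites the B cell scores were 15.7 to 21.3 and the plasmablast scores 61.2 to 70.3. These narrow ranges largely follow from differences above 90 points, which need a very low B cell and a very high plasmablast rank.

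A different group held the highest plasmablast scores, and these sites were of medium rank in B cells. The strongest was on chromosome 2 from 75443862 to 75444040, with a plasmablast score of 143.7 (the 99.9th percentile) and a B cell score of 113.0 (the 52.5th). Its nearest shared neighbour, 2466 bp away, also ranked higher in plasmablasts, by 24.9 points. The next was on chromosome 1 from 173400482 to 173400660, with 100.4 in plasmablasts and 86.1 in B cells (57.7 points). It lay in the 1 Mb window that held more of these sites than any other window with at least 5 pairs. Then came sites on chromosome 2 from position 167838761 to position 167838939 (94.4 and 163.0), chromosome 11 from position 107373351 to position 107373529 (91.3 and 159.3) and chromosome 4 from position 58998082 to position 58998260 (90.1 and 138.9). Their differences were 30.01, 31.1 and 37.5 points, so these were among the strongest plasmablast peaks and only moderately displaced in rank.

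The peaks of the 2 cell types were centred farther from each other at these sites, a measure the rule used only to pair peaks. The midpoints of the paired peaks were a median of 35.5 bp apart (interval 34 to 37 bp). Over all pairs this was 17 bp, and over the sites ranked higher in B cells 13 bp (12 to 13 bp). Midpoints over 50 bp apart were found at 35.2% of the sites (33.1 to 37.3%), against 11.7% of all pairs and 4.05% of the opposite set. Midpoints within 10 bp were found at 14.9%, against 33.1% and 42.8%. All 19 autosomes showed it, with medians from 27 to 45.5 bp.

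Seen the other way, the share of pairs ranked higher in plasmablasts rose with the distance. It was 3.87% of the pairs with midpoints within 10 bp (3.46 to 4.31%) and 23.5% of those 51 to 100 bp apart (21.8 to 25.3%). Among the 461 pairs more than 100 bp apart it was 37.5% (33.1 to 42.1%). The opposite set went from 10.3% to 3.04% over the same steps. Without regard to rank, the relation therefore ran in opposite directions in the 2 sets.

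Between the thresholds the median distance was larger at low B cell and low plasmablast percentiles, so it was also compared within bands of each percentile. In every band of plasmablast percentile from 30 to 100 the sites had a larger median distance than the pairs between the thresholds. In the band from 90 to 100 it was 29 bp (25 to 32 bp, 266 sites) against 10 bp (10 to 11 bp, 2151 pairs). Within a plasmablast band the rule gives the sites lower B cell percentiles than those pairs, and within a B cell band higher plasmablast percentiles. Neither comparison thus held both ranks alike. At like B cell percentile the median distance was also larger in each band of 10 points. It was 40 bp (35 to 44) against 32 bp (30 to 34) in the lowest band, 46.5 bp (39 to 53) against 27 bp (25 to 28) in the band from 10 to 20, and 40 bp (36 to 45) against 23 bp (22 to 24) from 20 to 30. From 30 to 40 it was 34 bp against 22 bp, from 40 to 50 it was 31 bp against 18 bp, and from 50 to 60 it was 29 bp against 17 bp, with intervals that did not overlap. From 60 to 70, with 49 sites, the intervals overlapped (20 bp, 13 to 27, against 14 bp, 13 to 15). The opposite set differed little from the pairs between the thresholds at like B cell percentile, with overlapping intervals in each band from 30 to 70. From 40 to 50 it had 16 bp (13 to 18) against 18 bp (17 to 19). At like plasmablast percentile its distances were shorter, as from 30 to 40 with 11 bp (10 to 13) against 19 bp (18 to 21). B cell rank thus moved with the distance, and its part in the difference was not tested further. B cell peaks were listed 305 bp wide and plasmablast peaks, all but 1, 179 bp, which limits how far apart the midpoints of overlapping peaks can be.

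**Figure D2:**
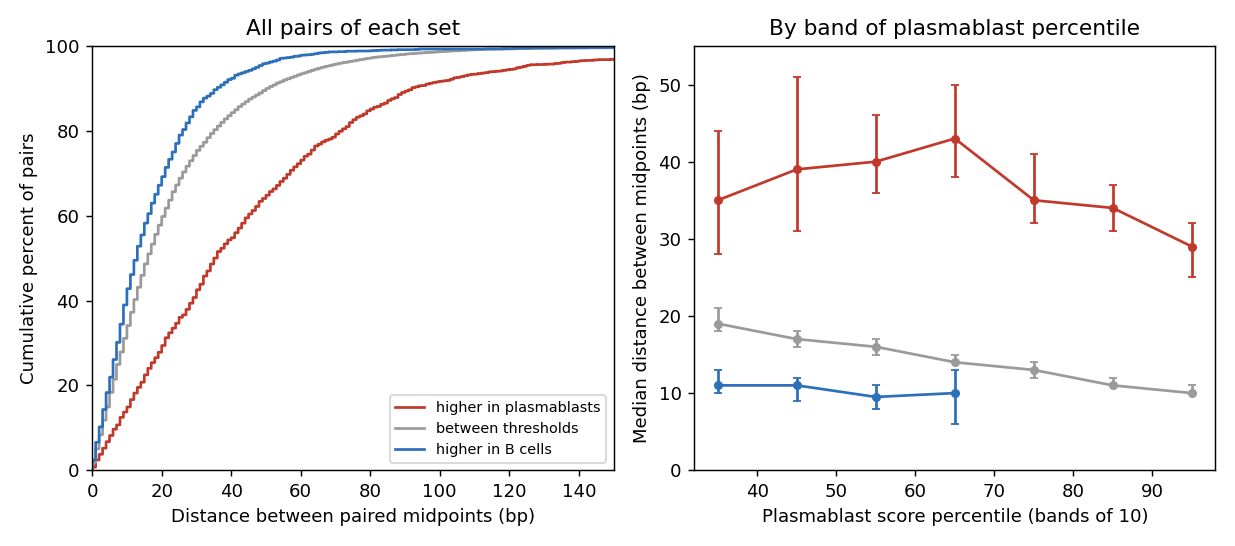
The left panel gives the cumulative percent of pairs (vertical axis) by distance between paired midpoints in bp, cut at 150 bp. The right panel gives the median distance by band of plasmablast percentile, with 95% intervals of the median as bars. Sites ranked higher in plasmablasts (red) lie above the other sets in every band from 30 to 100. Within a band the rule sets them at lower B cell percentiles, so B cell rank is not held alike.

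A second peak close by was not more frequent at these sites than over all pairs. Whether such peaks went with larger midpoint distances was not tested. A further plasmablast peak within 1 kb of the plasmablast peak was listed at 2.84% of the sites (2.17 to 3.65%), against 4.00% of all pairs and 5.29% of the opposite set. A further B cell peak within 1 kb of the B cell peak was listed at 2.74%, against 2.79% and 2.96%. Neighbours closer than the peak caller separates are not seen in these lists.

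The sites lay in stretches of the genome with fewer shared CTCF sites. The median number of other shared sites within 500 kb was 15 (14 to 15), against 19 over all pairs and 21 (20 to 21) at the sites ranked higher in B cells. The nearest other shared site was a median of 18172 bp away, against 13870 bp over all pairs. It was over 100 kb away at 10.1% of the sites (8.80 to 11.4%), against 6.16% of all pairs and 3.58% of the opposite set. Sites with a shared neighbour within 2 kb were 6.06% (5.08 to 7.18%), against 7.99% of all pairs. Solitary sites were thus more frequent in the set, and tandem ones less.

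Across quintiles of this local density the share of pairs in the set fell at each step. It was 13.1% in the sparsest quintile, with 0 to 10 other sites (12.2 to 14.1%), and 4.65% in the densest, with 33 to 69 (4.04 to 5.31%). The opposite set went from 6.74% to 8.93%. The ranks used by the rule themselves followed density. From the sparsest to the densest quintile the median B cell percentile of all pairs went from 38.5 to 61, and the median plasmablast percentile from 44.5 to 56.1. Part of the gradient is therefore already in the choice of the sites. With the B cell percentile held to the lowest 25%, the share still went from 24.96% (22.9 to 27.1%) to 11.1% (9.01 to 13.5%). With it held between 50 and 70, the share was 3.73% (2.64 to 5.10%) in the sparsest and 3.34% (2.28 to 4.71%) in the densest quintile, a difference within the counting error.

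**Figure D3:**
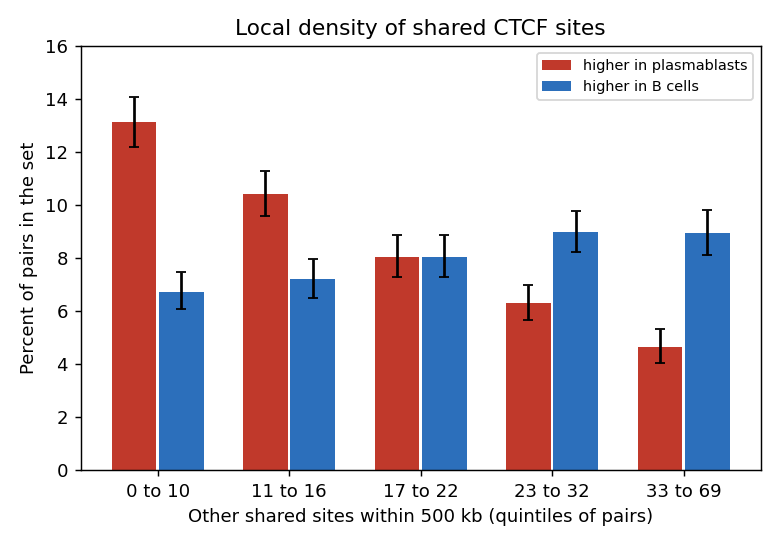
Bars give the percent of autosomal shared pairs that ranked higher in plasmablasts (red) or in B cells (blue) by at least 30 points, in quintiles of the number of other shared sites within 500 kb; error bars are 95% intervals over sites. The red bars fall from 13.1% to 4.65% and the blue ones go from 6.74% to 8.93%.

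The autosomes contributed unequally. Chromosome 3 stood highest, with 159 of its 1096 pairs in the set (14.5%, 12.5 to 16.7%). Chromosome 1 followed with 172 of 1527 (11.3%, 9.72 to 13.0%), chromosome 13 with 100 of 902 (11.1%, 9.11 to 13.3%) and chromosome 6 with 143 of 1317 (10.9%, 9.23 to 12.7%). Chromosome 17 stood lowest with 71 of 1141 (6.22%, 4.89 to 7.78%), and chromosome 11, the one with most pairs, had 140 of 2047 (6.84%, 5.78 to 8.02%). The interval lay above the overall 8.59% on 4 autosomes and below it on 5.

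Local density matched the order of the chromosomes only in part. If each density quintile had its genome-wide share on every chromosome, chromosome 3 would have 9.94% and chromosome 13 would have 10.8%. The value of chromosome 3 exceeded this with its whole interval, while that of chromosome 13 was close to it. Chromosomes 1 and 6 also exceeded theirs (9.71% and 9.08%) with the whole interval, by narrow margins. Chromosomes 5 and 8 lay below theirs, with upper limits of 7.65% and 8.19% against 7.69% and 8.33%. Chromosome 6 combined a high share of these sites with the lowest share of the opposite set, 63 pairs or 4.78% (3.70 to 6.08%). On chromosome 3 the opposite set was not reduced (7.94%, 6.41 to 9.70%), so the chromosome was rich in sites of the first kind without being poor in the second.

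**Figure D4:**
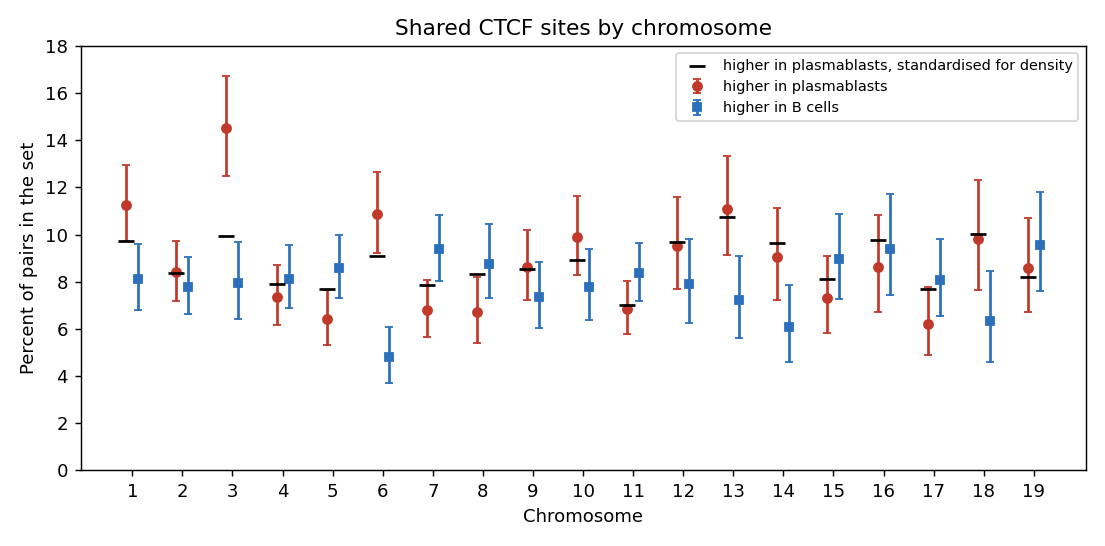
For each autosome (horizontal axis), points give the percent of its shared pairs ranked higher in plasmablasts (red circles) or in B cells (blue squares), with 95% intervals over pairs, and black dashes the red value standardised for local density. Chromosome 3 lies highest at 14.5%, above its standardised value of 9.94%.

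Peaks listed in 1 cell type only took no part in the ranking, and they varied along the genome together with these sites. Windows of 1 Mb that contained 5 or more unshared peaks were grouped by the plasmablast only share of these peaks. In the 330 windows where that share was at most 20%, 6.19% of the shared pairs were in the set (5.58 to 6.84%). In the 112 windows where it exceeded 60%, 15.0% were (12.6 to 17.6%). The opposite set went from 9.25% (8.52 to 10.03%) to 5.98% (4.47 to 7.81%). Shared sites that ranked higher in plasmablasts were thus more frequent where plasmablast only peaks made up more of the unshared ones.

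Of the 836 pairs in windows above 60%, 458 lay in the sparsest quintile of density, so the comparison was repeated by density. Among pairs in the sparsest quintile the share went from 10.4% (8.31 to 12.9%) to 14.0% (10.9 to 17.5%), with overlapping intervals. Among pairs of the second and the third quintile it went from 7.51% (6.49 to 8.62%) to 15.7% (12.02 to 19.98%). In the densest 2 quintiles it went from 3.84% (3.15 to 4.64%) to 6.82% (5.65 to 8.14%) in windows with a share of 40 to 60%, and only 34 pairs lay in windows above that. The direction was the same in each, and the size differed.

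**Figure D5:**
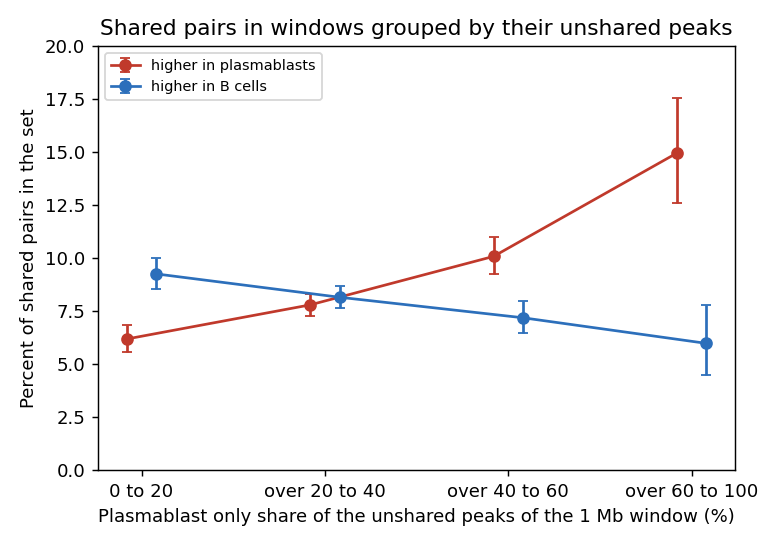
Windows of 1 Mb are grouped by the plasmablast only share of their unshared peaks (horizontal axis, percent), and points give the percent of their shared pairs ranked higher in plasmablasts (red) or in B cells (blue), with 95% intervals over pairs. The red points go from 6.19% to 15.0% and the blue ones from 9.25% to 5.98%.

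At short range the relation with the windows was not repeated. A plasmablast only peak lay within 10 kb of 10.6% of the sites (9.34 to 12.04%), against 11.9% of all pairs, and within 1 kb of 1.15% (0.74 to 1.71%), against 1.89%. A B cell only peak lay within 10 kb of 18.1% (16.5 to 19.9%), against 17.5%, and within 1 kb of 1.15% (0.74 to 1.71%), against 0.69%. Within 1 kb both values thus ran the other way from the windows, on 24 sites each. Within 50 kb B cell only peaks were fewer, at 55.1% of the sites (52.9 to 57.3%) against 60.8% of all pairs and 66.8% of the opposite set. Plasmablast only peaks within 50 kb did not differ, at 37.7% of the sites (35.6 to 39.8%) against 37.6% and 39.4%. These values were not split by density. The nearest unshared peak was plasmablast only at 37.4% of the sites (35.3 to 39.5%), against 34.7% of all pairs and 33.5% of the opposite set. Among pairs above the median score of both whole lists this excess was absent, with 34.1% at the sites and 34.7% over the pairs.

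Neighbouring sites leaned the same way more often than those of all pairs, but weakly. The nearest other shared site ranked higher in plasmablasts, by any amount, at 56.6% of the sites (54.5 to 58.8%), against 48.3% of all pairs and 41.2% of the opposite set. With percentiles taken over each whole peak list the majority turned, with 42.1% of the neighbours ranking higher in plasmablasts, against 33.6% over all pairs. In the main ranking, with neighbours that were in the set left out, the share was 50.3%, against 43.7%. That step drops only neighbours above 0. With neighbours of the opposite set left out as well, the share was 54.9% (52.5 to 57.4%), against 47.9%. The median difference at that neighbour was 3.12 points (2.40 to 3.92), far below the 41.2 points of the sites themselves. The neighbour was itself in the set at 12.8% of the sites (11.3 to 14.3%), against 8.27% of all pairs. The percentage above 0 was 57.8% for neighbours under 10 kb away, 55.1% from 10 to 100 kb and 61.7% beyond 100 kb. All pairs had 45.6%, 49.7% and 54.5%, so the excess over all pairs was present at every distance. These shares were not split by density or by chromosome, although the ranks followed density.

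Most of the sites stood alone along the chromosome, but a set of 8.59% of the pairs largely brings this with it. Counting along the ordered shared pairs, 1580 were single, while 208 runs held 2 consecutive sites, 20 held 3, 3 held 4 and 2 held 5. The opposite set, of 1928 pairs, had 1563 singles and 156 runs of 2. Its singles were thus a larger part of the set than the 1580 among the 2078.

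The tightest run of 5 was on chromosome 3, within B cell peak positions 57252429 to 57648253. Its B cell scores, in genome order, were 64.8, 77.8, 45.4, 55.6 and 17.6, and its plasmablast scores 38.8, 43.4, 41.8, 42.9 and 27.6. The differences ran from 38.7 to 55.3 points. The plasmablast scores were nearly level over the first 4 sites while the B cell scores varied more. The window from 57000001 to 58000000 held 10 shared pairs, of which 6 were in the set and 1 in the opposite one.

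The other run of 5 was on chromosome 12, spread over more than 5 Mb from 94391108 to 99519081. Its B cell scores were 26.9, 22.2, 41.7, 88 and 41.7, and its plasmablast scores 41.1, 16.4, 32, 53.1 and 43.8. The second site had no other shared site within 500 kb, and the length of the run comes from wide gaps between shared sites. Its last 3 sites lay between 99419955 and 99519081. They belonged to a window (99000001 to 100000000) with 6 of 10 pairs in the set.

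Among 1396 windows of 1 Mb with at least 5 pairs, 405 held none of these sites and in 14 they were 50% or more of the pairs. The largest share, 4 of 6 pairs (66.7%), was found on chromosome 12 from 84000001 to 85000000 and on chromosome 17 from 21000001 to 22000000. In the chromosome 12 window the members had B cell scores of 69.5, 34.3, 40.8 and 74.1 and plasmablast scores of 35.6, 21.5, 32 and 39.2. In the chromosome 17 window the members had B cell scores of 62.1, 45.4, 23.2 and 19.4 and plasmablast scores of 32.9, 31, 18.2 and 19. None of the remaining pairs of these windows was in the opposite set. On chromosome 13 from 81000001 to 82000000, 5 of 8 pairs were in the set (62.5%), among them the site with 91.5 points and midpoints 114 bp apart. The other 3 pairs of that window also ranked higher in plasmablasts, by 14.9 to 18.6 points, so the whole window leaned one way.

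By number, the richest of these windows was on chromosome 1 from 173000001 to 174000000, with 9 of 32 pairs in the set, none in the opposite one and a median difference of 11.5 points over the 32. Its unshared peaks were 12 from B cells and 12 from plasmablasts. The 5 windows that followed held 7 sites each, among them chromosome 2 from 128000001 to 129000000 (7 of 19, none opposite) and chromosome 3 from 145000001 to 146000000 (7 of 17, 2 opposite). On chromosome 5 they were 121000001 to 122000000 (7 of 39, 2 opposite) and 135000001 to 136000000 (7 of 37, 5 opposite). The median differences of these chromosome 5 windows were 5.77 and -2.46 points. The window on chromosome 17 from 34000001 to 35000000 also held 7, but of 52 pairs (13.5%) and with a median difference of 0.83. Over all autosomal pairs the share was 8.59%, and over the pairs of chromosome 17 it was 6.22%. The windows with the largest shares held few pairs, and no test was made of any window.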

How the data were processed

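CTCF chromatin immunoprecipitation was analysed in 1 B cell and 1 plasmablast library. Bowtie and HOMER were run on the mm9 build, per the submitters' processing notes. Versions, peak thresholds, pooling and how the input entered are not given in the sources at hand. The deposited files list peaks with a score per peak, made by the authors, whose unit is not stated. Input libraries were not analysed here.

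Starts were read as BED and 1 was added. Overlaps were counted in Python 3.11.15 (numpy 2.4.6, pandas 2.3.3, scipy 1.17.1, matplotlib 3.10.9) and checked with bedtools 2.31.1, which gave 24702 shared B cell peaks. Each of the 24702 plasmablast peaks was paired once. Tied scores got their average rank; the 24186 pairs had 432 different B cell and 629 plasmablast scores, and the largest tie held 0.777% of pairs. The scripts were tested on simulated lists. Density and neighbours were measured from B cell midpoints.

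The members, measures and lists were chosen with earlier results of these data known. The sites named are the 10 largest differences, the 5 highest plasmablast scores, 3 pairs on each side of the threshold, the longest runs and the 3 windows with the largest share; windows named for their number of sites, and those around the runs, were chosen after their values were seen. Genes, promoters and motifs were not analysed, as no mm9 genome or annotation was used here. Alternatives were other thresholds, overlaps, rankings and subsets of pairs.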

Additional observations from a re-analysis of the deposited data

How the results depend on the processing

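The number of sites was 3837 with a threshold of 20 points, 1128 with 40 and 952 with percentiles over each whole peak list, of which 946 were among the 2078. Ranking by the log2 ratio of scores kept 1731 of the 2078 (83.3%), and keeping only pairs above the median score of both whole lists, ranked anew, kept 748. The median midpoint distance was 32 and 41 bp with thresholds of 20 and 40 (17 bp over all pairs), 32 bp with midpoints within 100 bp and 31 bp with 50% reciprocal overlap (16 bp), 43 bp with whole-list percentiles (17 bp), 22 bp among pairs within 50 bp (14 bp) and 24 bp above both median scores (13 bp). It stayed above that of all pairs in all 10 alternatives for the choice of sites. The median density relative to all pairs, 0.79, became 0.84 with a threshold of 20 and 0.86 above both median scores. The share of nearest neighbours ranked higher in plasmablasts, 56.6%, fell to 42.1% with whole-list percentiles, where all pairs had 33.6%. With that setting the median difference over all pairs was -7.30 points. In the main ranking, with neighbours in the set left out, the share was 50.3%, against 43.7% over all pairs. With those of the opposite set left out too it was 54.9%, against 47.9%. Plasmablast only peaks lay within 10 kb of 9.27% of the sites without pairs that had a further peak within 1 kb (10.1% of those pairs). Over the whole set they lay within 50 kb of 37.7% (37.6% of all pairs). For B cell only peaks the 50 kb value was 55.1% (60.8% of all pairs). A nearest unshared peak from plasmablasts only, a measure added after seeing the data, came to 34.1% above both median scores. Of 85 alternative values, 67 stayed within the counting interval or, for counts, within 1.5 times. The chromosome 3 share relative to all autosomes, 1.69, ran from 1.49 to 1.74. No replicate could be left out and no paired fit made, since each cell type had 1 CTCF library. Library depth is unknown, and its part in the ranks and midpoints was not tested.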

Other observations

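The X chromosome, left out of the sites described above, held more than its share of sites that ranked higher in plasmablasts. When its 516 shared pairs were ranked together with the autosomal ones, 105 of them (20.3%, interval 17.0 to 24.1%) exceeded the B cell percentile by 30 points or more, against 8.48% of the autosomal pairs. The opposite set held 21 X pairs (4.07%). The median difference over all X pairs was 9.54 points, against -0.64 on the autosomes. X pairs ranked low in both lists. Their median B cell percentile was 25.6, against 50.5 on the autosomes, and their median plasmablast percentile 41.7, against 50.2. The share of X pairs in the set was not compared with that of autosomal pairs at like B cell percentile. The shared sites of the X chromosome were sparse, with a median of 8 others within 500 kb. Among pairs with at most 10 such neighbours, 20.4% of the 353 on X (16.3 to 24.98%) and 12.9% of the 5076 on autosomes (11.99 to 13.9%) were in the set. The midpoints of the 105 X sites were a median of 35 bp apart (25 to 41 bp), against 21 bp over all X pairs. The sex of the animals is not given in the labels. No test was made of this difference.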
